A study of Mus musculus with 10 samples.

Results

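Undifferentiated and differentiating spermatogonia, the mitotic germ cells of the testis, were compared in testis nuclei in which RNA (scRNA-seq) and accessible chromatin (scATAC-seq) had been read from the same single nuclei. The comparison took the cells that the authors named undiff. SpG and diff. SpG from their RNA, which were 1292 and 927 cells, or 2219 of the 45250 cells in the scRNA-seq table. The nuclei came from wild-type C57BL/6J mice at 11, 17 and 25 days postpartum (dpp) and, at 8 weeks of age, from mice of the genotypes Cre/+ and Nfya-CKO. Nfya-CKO mice carry floxed Nfya alleles that Cre removes in part, and Cre/+ mice carry the Cre alone. In both genotypes Cre is made from the Stra8 gene, which is active in spermatogonia and preleptotene spermatocytes, the cells compared here among them. Each condition was 1 library per assay and the number of mice behind a library is not given in the sources used here. The deposited gene values were pooled over all libraries, 1 value per population, so they are printed as the authors' means, without an SD or a test. A gene was counted as higher or lower by the size of its ratio alone.

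Undifferentiated spermatogonia hold the stem cells of the testis. Their maintenance depends on glial cell line-derived neurotrophic factor from Sertoli cells, which acts through the receptor pair GFRA1 and RET, and on transcription factors such as ZBTB16 and SALL4. Retinoic acid moves these cells into the differentiating state, in which they express the receptor tyrosine kinase KIT and divide several times before they enter meiosis as preleptotene spermatocytes (pL). STRA8 and MEIOC act at this entry, and NFYA, the gene product the study deletes, is a subunit of the CCAAT-box factor NF-Y.

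The promoters of Gfra1, Stra8 and Meioc are shown because these genes were among those with the largest ratios of accessibility in their direction. Each sequence runs from 250 bases before to 50 bases after a RefSeq start site, 5′ to 3′ on the gene's strand, in GRCm38.p6, the assembly of mm10. Capitals mark CCAAT and GGGCGG on either strand (read as ATTGG and CCGCCC on the other one), and the 2 motifs share no base.
Gfra1, chr19:58455349-58455648, minus strand: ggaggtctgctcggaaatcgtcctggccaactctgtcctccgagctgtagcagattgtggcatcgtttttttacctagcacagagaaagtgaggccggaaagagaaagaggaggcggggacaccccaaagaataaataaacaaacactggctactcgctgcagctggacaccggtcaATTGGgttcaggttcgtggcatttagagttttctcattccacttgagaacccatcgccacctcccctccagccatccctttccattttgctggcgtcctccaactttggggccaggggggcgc
Stra8, chr6:34920698-34920997, plus strand: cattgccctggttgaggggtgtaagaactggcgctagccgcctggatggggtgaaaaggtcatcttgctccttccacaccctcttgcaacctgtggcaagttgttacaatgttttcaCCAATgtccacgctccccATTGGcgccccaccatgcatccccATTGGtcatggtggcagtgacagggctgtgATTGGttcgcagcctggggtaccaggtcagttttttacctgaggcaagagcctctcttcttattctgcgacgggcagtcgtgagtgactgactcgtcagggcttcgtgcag
Meioc, chr11:102665335-102665634, plus strand: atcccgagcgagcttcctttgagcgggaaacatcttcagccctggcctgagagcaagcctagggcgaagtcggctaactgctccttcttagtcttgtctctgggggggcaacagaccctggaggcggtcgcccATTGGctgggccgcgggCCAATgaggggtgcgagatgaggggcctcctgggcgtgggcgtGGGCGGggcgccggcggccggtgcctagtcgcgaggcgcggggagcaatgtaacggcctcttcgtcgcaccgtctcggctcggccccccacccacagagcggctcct
The Gfra1 window held 1 such motif, an ATTGG 73 bases before the start site. The Stra8 window held 4, at 133, 115, 91 and 61 bases before the start, all of the CCAAT kind. The Meioc window held 2 of the CCAAT kind, at 117 and 100 bases before the start, and 1 GGGCGG at 57 bases. Of all 27025 RefSeq genes with such a window, 41.1% held CCAAT or ATTGG and 38.2% held GGGCGG or CCGCCC. These matches describe letters in a window and not binding.

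The populations came mostly from different libraries. Of the undiff. SpG cells, 646 (50%) were from 11 dpp, 262 (20.3%) from 17 dpp, 280 (21.7%) from 25 dpp and 102 (7.89%, exact Clopper-Pearson 95% interval 6.48 to 9.50) from Cre/+. Of the diff. SpG cells, 783 (84.5%, 82.0 to 86.7) were from Cre/+, 108 (11.7%) from 25 dpp, 22 from 11 dpp and 12 from 17 dpp. The Nfya-CKO library gave 1 cell to undiff. SpG and 0 of 927 cells to diff. SpG, which allows a share of up to 0.324%. Its own spermatogonia form a separate population that was not part of the comparison, and 3 cells had no library name. The share of spermatogonia named differentiating was therefore 3.29% at 11 dpp, 4.38% at 17 dpp, 27.8% (23.4 to 32.6) at 25 dpp and 88.5% (86.2 to 90.5) in Cre/+. These intervals cover counting error only. Age, genotype, library and population cannot be told apart in the pooled gene values.

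Cells of different libraries shared cell numbers, the indices that stand for a cell's barcode. The Cre/+ and Nfya-CKO libraries had 3813 cell numbers in common, which were 31.8% of the Cre/+ and 74.0% of the Nfya-CKO cells. The wild-type libraries shared 703 numbers between 11 and 17 dpp, 621 between 11 and 25 dpp and 853 between 17 and 25 dpp, and every other pair shared 0 to 19. Of the diff. SpG cells, 454 (49.0%) had a number that also occurred in another library, as had 420 (32.5%) of the undiff. SpG cells. In 143 diff. SpG cells of Cre/+ the same number named a spermatogonium of Nfya-CKO, with a median of 21876 UMIs (unique molecular identifiers, 1 per captured transcript) against 2378 in the Cre/+ cell. In another 305 it named a somatic cell of Nfya-CKO, with a median of 834 UMIs against 11954 in the Cre/+ cell. The undiff. SpG cells of 11 dpp shared 177 numbers with eL/L/Z cells (early leptotene to zygotene) of 17 dpp, at medians of 16925 and 695 UMIs. Without the cells of shared numbers, Cre/+ made up 70.6% of diff. SpG, 25 dpp 22.2% and 11 dpp 4.65%. Of undiff. SpG, 11.9% were then from 17 dpp, 30.6% from 25 dpp and 5.05% from Cre/+. The share of spermatogonia named differentiating at 17 dpp was then 8.77%, against 4.38% with all cells. The pooled gene values include these cells, and values without them were not computed here.

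**Figure D1:**
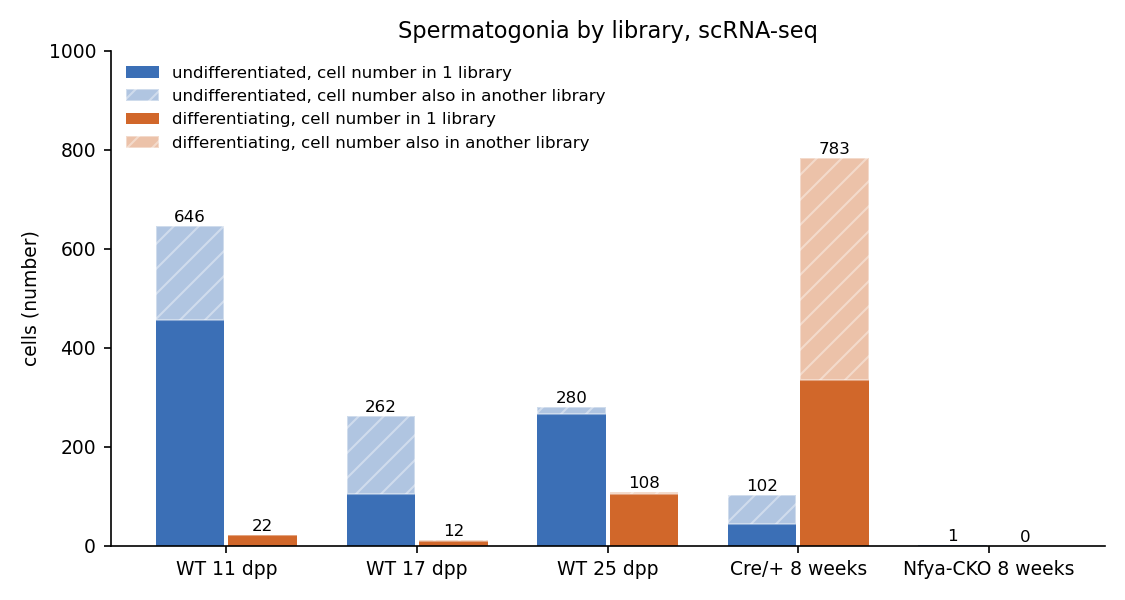
Number of cells (vertical axis) named undifferentiated (blue) and differentiating (orange) spermatogonia in each of the 5 scRNA-seq libraries. Hatched parts are cells whose cell number also occurs in another library. The largest part of the undifferentiated cells is from 11 dpp (646 of 1292 cells), and differentiating cells are mostly from Cre/+ (783 cells).

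The depth was 13781605 UMIs in undiff. SpG (median 9290 per cell) and 7154120 in diff. SpG (median 6188 per cell). Intervals given for a ratio below are 95% intervals of UMI counting for the pooled values, approximate since the counts were rebuilt from the cell depths, and do not cover the spread between mice. Levels are mean UMIs per 10000 UMIs of a cell. Nfya itself stood at 0.456 in undiff. SpG and 0.667 in diff. SpG, and at 1.11 in the spermatogonia of the Nfya-CKO library, where a value per gene does not resolve the deleted exons.

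Of 28125 genes, 14264 had a mean of at least 0.05 over both populations and were compared as a log2 ratio of value + 0.1. A member counted as higher or lower below passed 2-fold on this scale, which is smaller than the ratio of the levels themselves. By this measure 1459 genes (10.2%) were at least 2-fold higher and 1006 (7.05%) at least 2-fold lower in diff. SpG. Genes whose level in round or elongating spermatids (RS, ES) was at least 10 times that in pL were set apart as spermatid-flagged, which held for 1810 of the genes compared. They made up 1009 of the 1459 higher genes and 9 of the 1006 lower genes, and 55.7% of these 1810 were higher. That share, the background for flagged genes below, covers only those that passed the filter, of 3007 flagged in the matrix. A low gene can pass the filter through its diff. SpG level alone, which favours higher genes in this share. Among the 12454 unflagged genes, 450 (3.61%) were higher and 997 (8.01%) lower, and the median log2 ratio was -0.02 against 1.07 in the flagged genes. The genes lower in diff. SpG were thus almost all unflagged, while most higher genes at 2-fold carried the flag. At 1.5-fold this majority was lost, with 1593 of 3097 higher genes unflagged.

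**Figure D2:**
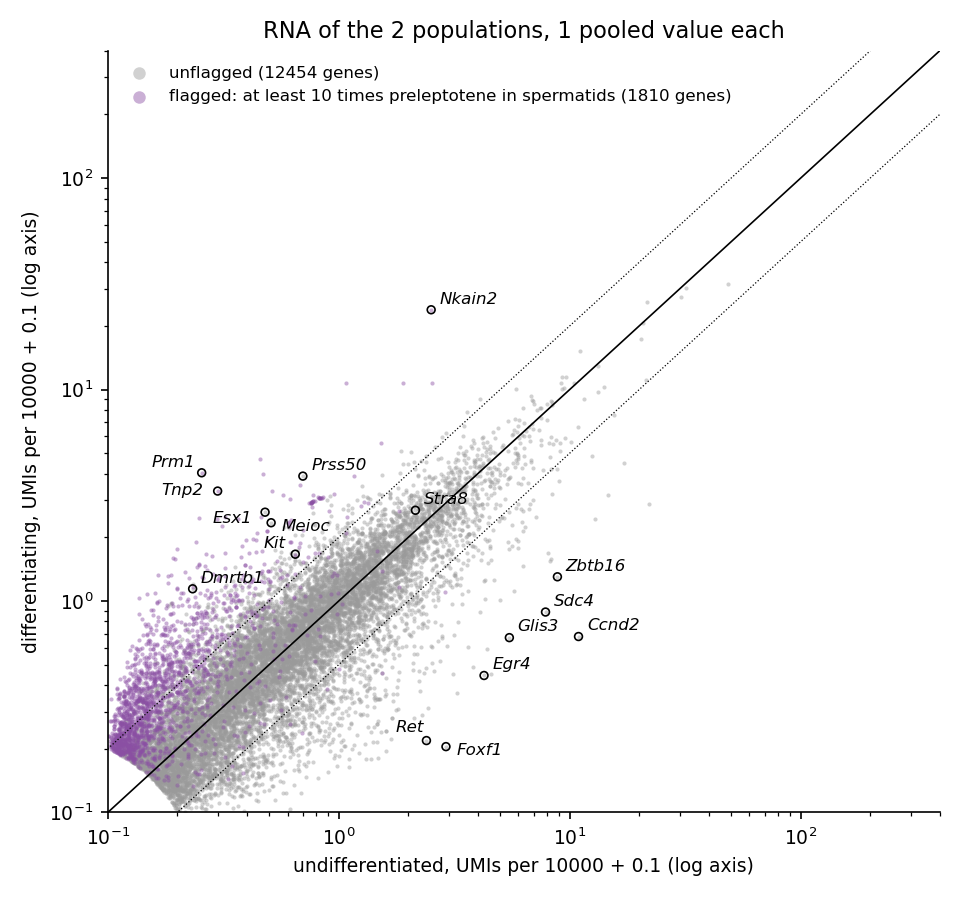
RNA level in differentiating (vertical, log axis) against undifferentiated spermatogonia (horizontal, log axis), in UMIs per 10000 + 0.1, 1 point per gene. Purple points are spermatid-flagged genes, the full line marks equal levels, the dotted lines a 2-fold difference, and the open circles mark named genes. Purple points lie mostly above the upper dotted line (1009 of 1810), and genes of the undifferentiated state such as Zbtb16 and Ret lie below the lower one.

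Most transcription factors and RNA-binding proteins of the stem cell state were lower in diff. SpG. Of 21 such regulators, 13 were at least 2-fold lower and 0 higher, against 8.01% and 3.61% of all unflagged genes, and their median log2 ratio was -1.55. Zbtb16, a zinc finger repressor needed for stem cell maintenance, stood at 8.74 in undiff. SpG and 1.2 in diff. SpG, a ratio of 0.137 (0.126 to 0.15). Sall4, which acts with it, went from 4.88 to 0.907 (log2 ratio -2.31). Glis3, a zinc finger factor needed to form spermatogonial stem cells, was at 5.38 and 0.571 (log2 ratio -3.03). Neurog3, found in transit to differentiation, was at 1.04 and 0.0993 and had a log2 ratio of -2.52. Foxo1, a regulator of stem cell maintenance, kept more of its level, at 5.35 and 1.66, as did Sox3, a transcription factor of progenitors, at 6.17 and 2.03. Id4, an inhibitor of DNA binding used to mark stem cells, was at 0.682 and 0.382, which did not reach 2-fold. Taf4b, a subunit of a general transcription factor, was the 1 regulator with a log2 ratio above 0, at 1.04 and 1.34. The lowest levels of the list, such as Nanos2 at 0.0986 and 0.00408, lie where the added 0.1 holds the log2 ratio (-0.93) near 0. Summed over the list, the level in diff. SpG (10.2) was closer to that in pL (11.5) than to that in undiff. SpG (40.6).

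Receptors and surface proteins of stem cells had a median log2 ratio of -1.0, with 8 of 15 lower and 1 higher, against 8.01% and 3.61% of unflagged genes. Ret, the kinase that signals for glial cell line-derived neurotrophic factor, stood at 2.3 in undiff. SpG and 0.119 in diff. SpG, 0.0517 times the level (0.0385 to 0.0681). Its partner Gfra1 was at 1.08 and 0.198 (log2 ratio -1.99). The adhesion receptor Itga6 was at 1.33 and 0.265, and the tetraspanin Cd9 at 1.27 and 0.334. The list summed to 12.9 in Sertoli cells and 14.2 in undiff. SpG, with Itga6 at 2.96, Ret at 0.138 and Gfra1 at 0.0551 in Sertoli cells, and the part of Sertoli RNA was not tested. Itgb1, the subunit that pairs with Itga6, was at 2.17 and 2.47. Epcam, an epithelial adhesion molecule that spermatogonia keep during differentiation, was the exception, at 1.16 and 3.39 (log2 ratio 1.47).

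Targets and feedback inhibitors of ERK signalling, the kinase cascade below growth factor receptors, were lower in 8 of 12 members and higher in 0, against 8.01% and 3.61% of unflagged genes, with a median log2 ratio of -1.48. Dusp6, a phosphatase of ERK, was at 1.01 and 0.0637 (log2 ratio -2.76), and Spry4, a feedback inhibitor, at 0.491 and 0.0234 (log2 ratio -2.26). Egr1 and Fos, immediate early genes, were at 2.23 and 0.934 in undiff. SpG and at 0.355 and 0.179 in diff. SpG. Egr4, of the same family as Egr1, was among the 10 genes with the lowest log2 ratios, at 4.16 and 0.344. The D-type cyclin Ccnd1, which growth factors induce, went the other way, at 1.48 and 2.62, and stood at 4.39 in pL. The list summed to 15.3 in Sertoli cells, against 10.3 in undiff. SpG and 5.2 in diff. SpG, with Egr1, Fos and Dusp6 at 4.88, 4.82 and 2.96 there, and the part of Sertoli RNA in these values was not tested.

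Ccnd2, the D-type cyclin of spermatogonia, had the lowest log2 ratio of value + 0.1 among unflagged genes with a mean of at least 0.2. It stood at 10.8 in undiff. SpG, 0.579 in diff. SpG and 1.24 in pL, a ratio of 0.0535 (0.0471 to 0.0607) between both spermatogonia. Without the added 0.1 other genes, such as Foxf1 (0.0373), Spry4 (0.0475) and Ret (0.0517), had lower ratios. Ccnd3 was at 2.52 and 0.848, so that 2 of the 3 D-type cyclins were lower in diff. SpG. Of 16 cyclins, kinases and inhibitors of the G1 phase, 2 were higher and 4 lower, against 3.61% and 8.01% of unflagged genes. The inhibitor Cdkn1b, which holds cells out of the cycle, was at 1.21 and 0.0786 (log2 ratio -2.87), and its relative Cdkn1c at 0.446 and 0.106. Cdk2, the kinase of cyclins E and A, was at 0.512 and 1.49, and the inhibitor Cdkn2c at 0.0613 and 0.275.

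The other genes with the lowest log2 ratios were Foxf1, Zfp462, Sdc4, Kcnc2, Ptch1 and Tagln2. Foxf1, a forkhead factor, was at 2.81 and 0.105 (log2 ratio -3.83). Sdc4, a cell surface proteoglycan, was at 7.76 and 0.787, and Zfp462, a zinc finger protein, at 4.45 and 0.353. Ptch1, the hedgehog receptor, was at 1.5 and 0.0947. Sdc4, Ptch1 and Ccnd2 were also found in Sertoli cells, at 6.81, 1.81 and 5.24, whereas Foxf1 (0.153), Kcnc2 (0.0891) and Tagln2 (0.245) were low there.

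Among 14 markers of differentiation, 4 were higher and 2 lower in diff. SpG, against 3.61% and 8.01% of unflagged genes, with a median log2 ratio of 0.13. Kit stood at 0.548 in undiff. SpG, 1.56 in diff. SpG and 2.09 in pL, 2.85 times the undifferentiated level (2.54 to 3.21). Dmrtb1, a factor that coordinates the passage from mitosis to meiosis, was at 0.133, 1.04 and 1.03 in the same order. The homeobox genes Esx1 and Rhox13, both on the X chromosome, were at 0.38 and 0.227 in undiff. SpG and at 2.53 and 0.929 in diff. SpG. Stra8, which retinoic acid induces before meiosis, differed little, at 2.05 and 2.59 (ratio 1.26, 1.17 to 1.36), and was at 4.86 in pL. Dazl, Dmrt1, Sohlh2 and Scml2, which act in spermatogonia of both kinds, had log2 ratios between -0.04 and 0.23. The 2 lower members were Ccnd2 and Sohlh1, a factor of early differentiation, at 1.75 and 0.818. The authors named the populations by marker genes in this same RNA, so the direction of the stem cell lists and of Kit is no independent check of the names. The other 8 of the 14 differentiation markers did not reach 2-fold in either direction.

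With 0.1 added, none of 13 genes of the retinoic acid pathway reached 2-fold in either direction, against 3.61% higher and 8.01% lower over unflagged genes, and the median log2 ratio was 0.09. The receptors Rara and Rarg were at 0.617 and 0.73 in undiff. SpG and at 0.435 and 0.628 in diff. SpG. Rxra, a partner of these receptors, came nearest among the lower members, at 0.654 and 0.283 (log2 ratio -0.98), and the retinol-handling enzyme Rdh11 among the higher ones, at 0.224 and 0.498 (log2 ratio 0.88). The levels of Rxra and of Rdh11 without the added 0.1 differed by more than 2-fold. The retinoic acid binding protein Crabp1 was at 0.794 and 1.43.

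Some genes of early meiosis were higher in diff. SpG. Of 35, 8 were at least 2-fold higher and 0 lower, against 3.61% and 8.01% of all unflagged genes, 32 had a log2 ratio above 0, and the median log2 ratio was 0.61. Meioc, which sustains the meiotic program by regulating transcripts, stood at 0.409 in undiff. SpG, 2.24 in diff. SpG and 2.37 in pL, so that the level in diff. SpG was close to that in pL. Sycp3, of the axis of meiotic chromosomes, was at 0.673, 2.21 and 1.2, higher in diff. SpG than in pL. Rec8, the meiotic cohesin subunit, was at 0.14, 0.457 and 0.298. Prdm9, which places recombination sites, was at 0.122, 0.618 and 0.974, and Mei1, needed for DNA breaks, at 0.352, 0.977 and 1.18. Meiob, which acts on recombination intermediates, and Majin and Terb1, which tether telomeres, had log2 ratios of 1.03, 1.15 and 1.13. The cohesin Smc1b, at 3.38 and 6.59, and the synaptonemal complex genes Syce1 (0.981 and 2.05) and Sycp1 (5.74 and 9.99) had log2 ratios of 0.94, 0.99 and 0.79, below 2-fold with 0.1 added. Rnf212, a crossover factor, was the member with the lowest log2 ratio (-0.92). Of the 8 higher genes, Meioc (2.65), Sycp3 (3.82), Majin (2.28), Terb1 (1.29) and Meiob (1.27) stood higher in mP/lP (middle and late pachytene) than in diff. SpG, and Rec8 stood at 1.11 in RS. Prdm9 and Mei1 were lower in mP/lP, RS and ES than in diff. SpG. Whether RNA from other cells contributes was not tested.

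**Figure D3:**
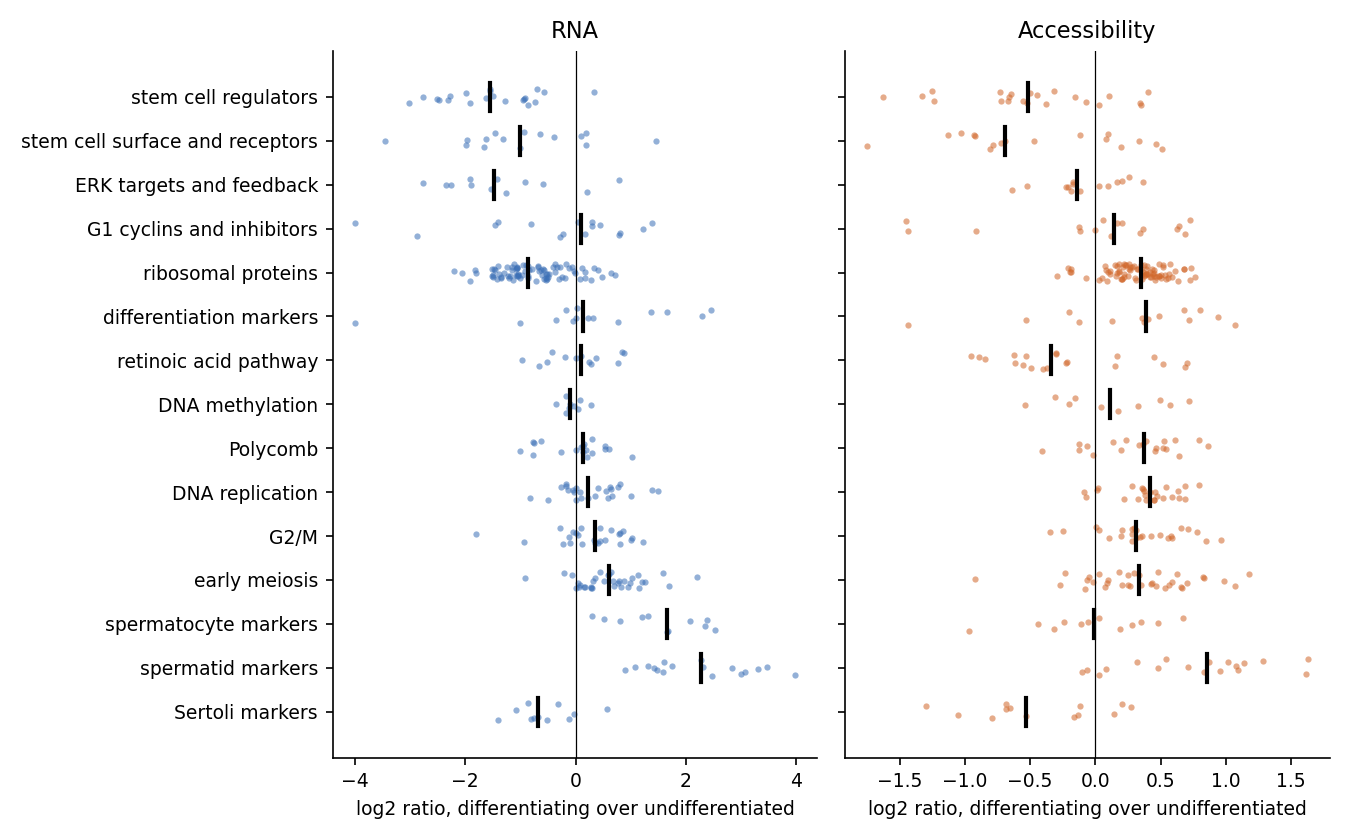
log2 ratio of differentiating over undifferentiated spermatogonia (horizontal axes) for RNA (left, value + 0.1) and accessibility (right, value per 1000000 + 1), 1 point per gene and 1 row per gene list, with the median as a black bar. Stem cell and ERK lists lie left of 0 in RNA (medians -1.55, -1.0 and -1.48), early meiosis right of it (0.61), and spermatid markers farthest right (2.28).

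Few DNA replication and mitosis genes passed 2-fold, at a background of 3.61% higher and 8.01% lower. Of 25 replication genes, 3 were higher and 0 lower (median log2 ratio 0.22): Rrm2, a subunit of ribonucleotide reductase, at 0.213 and 0.716, Ccne2, an E-type cyclin, at 0.159 and 0.631, and the clamp loader subunit Rfc4, at 0.255 and 0.614. The helicase subunits Mcm5 and Mcm6 had log2 ratios of 0.00 and -0.05, and the clamp Pcna was at 0.569 and 0.457. Of 25 genes of G2 and mitosis, 3 were higher and 1 lower (median 0.35). The proliferation marker Mki67 was at 1.79 and 4.32 (ratio 2.42, 2.26 to 2.59), and the topoisomerase Top2a at 3.34 and 5.91. Cks2, a binding partner of the cell cycle kinases, was the lower one, at 1.26 and 0.289.

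Few regulators of DNA methylation and Polycomb passed 2-fold, at a background of 3.61% higher and 8.01% lower. None of 9 DNA methylation genes reached 2-fold (median log2 ratio -0.10), with the maintenance enzyme Dnmt1 at 3.29 and 3.22 and the de novo enzyme Dnmt3a at 1.98 and 1.53. Of 19 Polycomb genes, Ring1 was higher (0.21 and 0.53) and Cbx7 lower (0.776 and 0.338), with a median log2 ratio of 0.13. The other members ran from -0.77 (Mtf2) to 0.61 (Rnf2). Of the NF-Y subunits, Nfya and Nfyb had log2 ratios of 0.47 and 0.49 and Nfyc, the third, 0.15.

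The unflagged genes with the highest log2 ratios in diff. SpG were led by Prss50, a germ cell protease-like gene, at 0.599 and 3.79 and at 4.16 in pL. It was followed by Esx1 and by Gp1bb and Sept5, neighbours with near identical values in all populations, so that the split of reads between them is uncertain. Vamp2, a membrane fusion protein, was at 0.133 and 1.1, against 0.476 in pL. Ebf3, a transcription factor, was at 0.255, 1.34 and 1.26, and Baz1a, a chromatin remodelling subunit, at 0.48, 2.13 and 1.7 with 4.3 in mP/lP. Zfp286os, an antisense transcript, was at 0.117 and 0.767 and at 2.57 in pL. Of the 450 unflagged higher genes, 73 (16.2%) had their highest germ cell level in diff. SpG itself, 80 (17.8%) in pL, 96 (21.3%) in mP/lP, 67 (14.9%) in RS and 80 (17.8%) in ES. Over all unflagged genes these shares were 7.21%, 21.8%, 11.0%, 9.32% and 11.9%, and the choice of higher genes itself favours a peak outside undiff. SpG.

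RNA of spermatid-flagged genes was higher in diff. SpG than in undiff. SpG. Flagged genes made up 8.62% of its UMIs, against 2.36% in undiff. SpG, 0.906% in pL, 3.53% in eL/L/Z, 11.0% in L/Z/eP (leptotene to early pachytene), 18.3% in mP/lP and 33.7% in RS. The low share in pL follows from the flag, which was set against pL. Of 17 spermatid markers, all of them flagged, 16 were at least 2-fold higher, against 55.7% of flagged genes, and their summed level was 2.57 in undiff. SpG, 22.6 in diff. SpG, 1.44 in pL, 73.3 in RS and 193 in ES. No defining marker was at 0 in diff. SpG. Prm1, a protamine that packs sperm DNA, was at 0.155 in undiff. SpG, 3.94 in diff. SpG, 0.00525 in pL and 40.8 in ES. Tnp2, a transition protein that precedes protamines, was at 0.199, 3.21, 0.00659 and 49.3, and Odf1, of the sperm tail, at 0.149, 2.36, 0.00944 and 16. Chl1, a cell adhesion gene, went from 0.357 to 4.59, and Asxl3, a Polycomb-linked gene, from 0.975 to 10.7. Nkain2, a membrane protein gene, went from 2.41 to 23.7. In RS, Chl1, Asxl3 and Nkain2 stood at 9.02, 24.2 and 42.4. Their levels in Nfya-CKO spermatogonia, whose cell numbers 143 diff. SpG cells shared, were not compared here. For the 1009 flagged higher genes, the level in diff. SpG was a median of 0.212 times the higher of RS and ES, with 0.114 and 0.475 at the 10th and 90th percentiles. Their highest germ cell level was in RS for 514 (50.9%) and in ES for 266 (26.4%). It was in mP/lP for 174 (17.2%) and in diplotene spermatocytes for 54 (5.35%), so the flag also takes in genes that peak in spermatocytes. The overlapping genes of the Pcdhg cluster accounted for 21 of the 1009, and their reads cannot be assigned to single members.

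Spermatids made up 6829 of 11991 cells (57.0%) and 31.7% of the UMIs in the Cre/+ library, which holds most diff. SpG cells, and 9.31% of the cells at 25 dpp. The 11 dpp and 17 dpp libraries, which hold most undiff. SpG cells, had 0 cells named as spermatids. The Nfya-CKO library had none among 5152 cells, which allows a share of up to 0.0582%. Its spermatogonia, all 491 from that library, held 4.27% flagged RNA, with Prm1 at 0.0171 and Tnp2 at 0.00605, below undiff. SpG. The flag also takes in Insl3, a Leydig cell gene, at 39.8 there, so flagged RNA is not spermatid RNA alone. The other somatic population, of which 78.8% of cells were from Nfya-CKO, held 12.2%, with Prm1 at 1.54, Tnp2 at 2.03 and Insl3 at 177. The unknown cells held 8.60% and Sertoli cells 1.82%. Flagged RNA is known per population and not per library, so its relation to the spermatid content of a library could not be measured. The part of free RNA, of doublets and of the shared cell numbers in it was not tested, and transcription in the cells cannot be told apart from them here.

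Spermatocyte markers were at least 2-fold higher in 8 of 11, against 10.2% of all genes compared. Of the 6 unflagged members 3 were higher, against 3.61% of unflagged genes. The 5 flagged ones compared were all higher, against 55.7% of flagged genes. The whole list summed to 6.89 in undiff. SpG, 24.7 in diff. SpG, 5.38 in pL and 84.7 in mP/lP. The lactate dehydrogenase Ldhc was at 0.579 and 3.44, with 0.113 in pL. Sertoli markers summed to 10.2 in undiff. SpG, 8.08 in diff. SpG and 157 in Sertoli cells, and 2 of 11 (Wt1 and Aard) were lower in diff. SpG, against 8.01% of unflagged genes. In 10 of the 11 the log2 ratio was below 0, with a median of -0.67. Of 8 Leydig markers 3 were compared, and Insl3 and Cyp17a1, both flagged, were higher, against 55.7% of flagged genes. Star, the unflagged one, had a log2 ratio of 0.32. The Leydig hormone gene Insl3 was at 0.064 and 0.893, with 177 in the other somatic cells. It was at 39.8 over all 491 Nfya-CKO spermatogonia, and 143 diff. SpG cells had a cell number found among these. The values of Insl3 ran near parallel to those of Jak3 over the populations, and whether both genes share reads was not tested. The part of Leydig RNA in the diff. SpG values was not tested. Macrophage, peritubular and endothelial markers summed to less than 1 UMI per 10000 each in both populations.

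**Figure D4:**
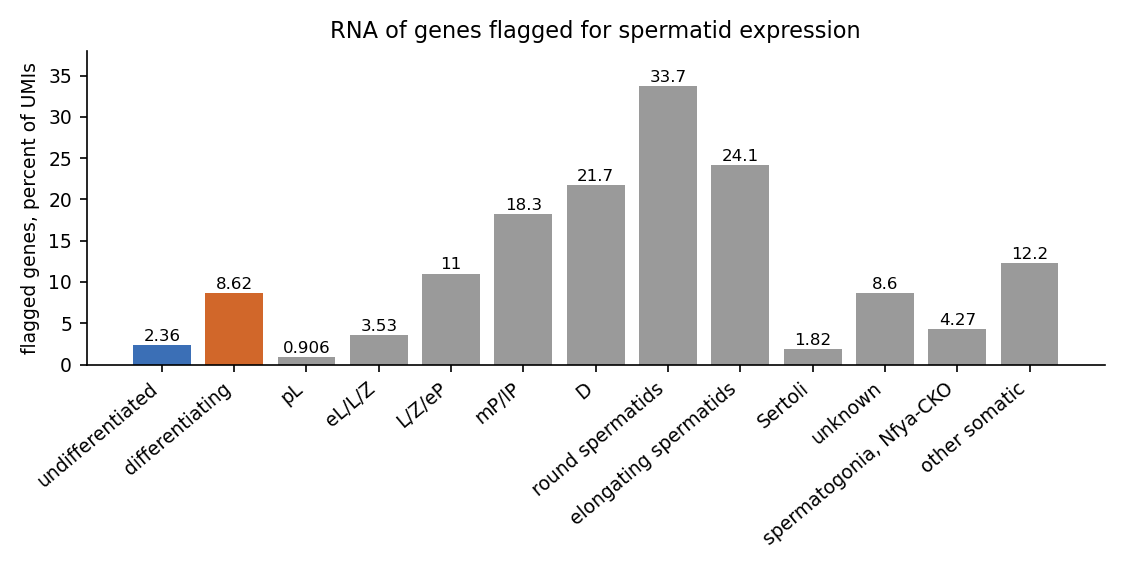
Percent of UMIs (vertical axis) that came from spermatid-flagged genes in each scRNA-seq population, with undifferentiated spermatogonia in blue and differentiating spermatogonia in orange, 1 pooled value each and no error. The share is 2.36% in undifferentiated and 8.62% in differentiating spermatogonia and is lower in pL (0.906%) and highest in round spermatids (33.7%).

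Accessibility was given as 1 value per gene, the mean share of a cell's fragments that fell in the gene's region, and is printed as fragments per 1000000 (FPM). The methods define promoter accessibility in merged coverage by a window around the start site, and whether this matrix uses it is not given in the sources used here. The cell table names 1230 undiff. SpG and 760 diff. SpG cells, with median depths of 26323.5 and 15815 fragments per cell, while the steps between low values correspond to means over 1258 and 764 cells. Of 30657 nuclear genes, 4279 (14%) were at least 1.5-fold higher and 4373 (14.3%) at least 1.5-fold lower in diff. SpG, on value + 1. The ratio varied with the signal itself: its median was 0.34 in the third decile of genes by mean signal, -0.52 in the sixth and 0.43 in the highest. Mitochondrial fragments were 40.6% in undiff. SpG and 35.0% in diff. SpG, and scaling to nuclear genes alone moved the ratios by -0.13 on the log2 scale before 1 was added, and by less at low signal with it. Median TSS enrichment was 12.5 and 14. Values of a list are therefore given also after subtracting the median of each decile, a step added after the data were examined.

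Part of the stem cell genes were less accessible in diff. SpG. Of 22 stem cell regulators 9 were at least 1.5-fold lower and 0 higher, against 14.3% and 14% of all nuclear genes (median log2 ratio -0.52, and -0.43 after centring), as were 9 of 17 receptors and surface genes (-0.69 and -0.21). Gfra1 was at 39.7 FPM in undiff. SpG and 11.1 in diff. SpG (log2 ratio -1.75), and Glis3 at 41.6 and 17.1. Ccnd2 was at 64.6 and 23.2, and Ccnd3 at 36.1 and 12.6. Etv5 (83.8 and 85.6), Egr1 (89.2 and 107) and Foxo1 (64.9 and 69.9) were lower in RNA without being lower in accessibility. Of the 14 ERK genes, only Dusp6 was at least 1.5-fold lower (median of the list -0.14, and -0.42 after centring), at 62 and 39.4.

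At a mean of at least 20 FPM, 1097 of 11570 genes (9.48%) were at least 1.5-fold more accessible and 904 (7.81%) less accessible in diff. SpG, and Vamp2, Meioc and Mpc1 had the largest ratios on the higher side. Meioc was at 28 and 64.8 (log2 ratio 1.18) and Stra8 at 28.4 and 60.9 (log2 ratio 1.07), so that Stra8 passed 1.5-fold in accessibility at an RNA ratio of 1.26. Kit was at 23.4 and 45.8, and Dmrtb1 at 27 and 47.7. The histone gene Hist3h2a and Trim17 had one shared value, 46.9 and 100, and Hist1h2aa and Saraf followed. On the lower side stood Zfp462 (37.1 and 9.33), Tnik (32.5 and 8.55), the neighbours Plgrkt and Cd274, Sirpa, Gfra1, Sdc4 and Prr15. Of 35 early meiosis genes 9 were higher and 1 lower, against 14% and 14.3% of all nuclear genes, the lower one being Spo11, the enzyme of meiotic DNA breaks, at 32 and 16.4 (median of the list 0.33, and 0.24 after centring). Spermatid markers were higher in 11 of 18 (median 0.85, and 0.70 after centring), against 30.6% of all flagged genes compared in RNA. Some were at low signal, such as Prm1 at 2.0 and 5.61 FPM. Of the flagged genes named above for RNA, Prm1, Tnp2 and Odf1 had accessibility log2 ratios of 1.14, 0.95 and 1.62. Those of Chl1, Asxl3 and Nkain2 were below 0, at -0.68, -0.22 and -0.50. Summed over all flagged genes, the share of nuclear signal was 5.40% and 5.37%, near equal in both populations.

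RNA and accessibility went together more often than apart. Among the 450 unflagged genes higher in RNA, 99 (22%) were at least 1.5-fold more accessible and 20 (4.44%) less, against 9.47% and 11.4% of all 12443 unflagged genes with both values. Among the 997 lower ones, 386 (38.7%) were less accessible and 21 (2.11%) more. The ratios of both assays had a Spearman rho of 0.34 across unflagged genes. It describes values pooled over libraries, from 2 assays that share cells. The 10 genes lower in both assays with the lowest RNA log2 ratios were the 10 with the lowest RNA log2 ratios of all unflagged genes named above, from Ccnd2 to Glis3. Higher in both were Esx1, Vamp2, Dmrtb1, Meioc, Ebf3, Zfp286os, Baz1a, Cpeb2, Ncoa1 and Bscl2. Of these, Cpeb2, which controls translation, was at 0.148 and 0.842 in RNA, and Ncoa1, a nuclear receptor coactivator, at 0.51 and 2.11. Of the 1009 flagged higher genes, 382 (37.9%) were more accessible, against 30.6% of all flagged genes compared in RNA.

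**Figure D5:**
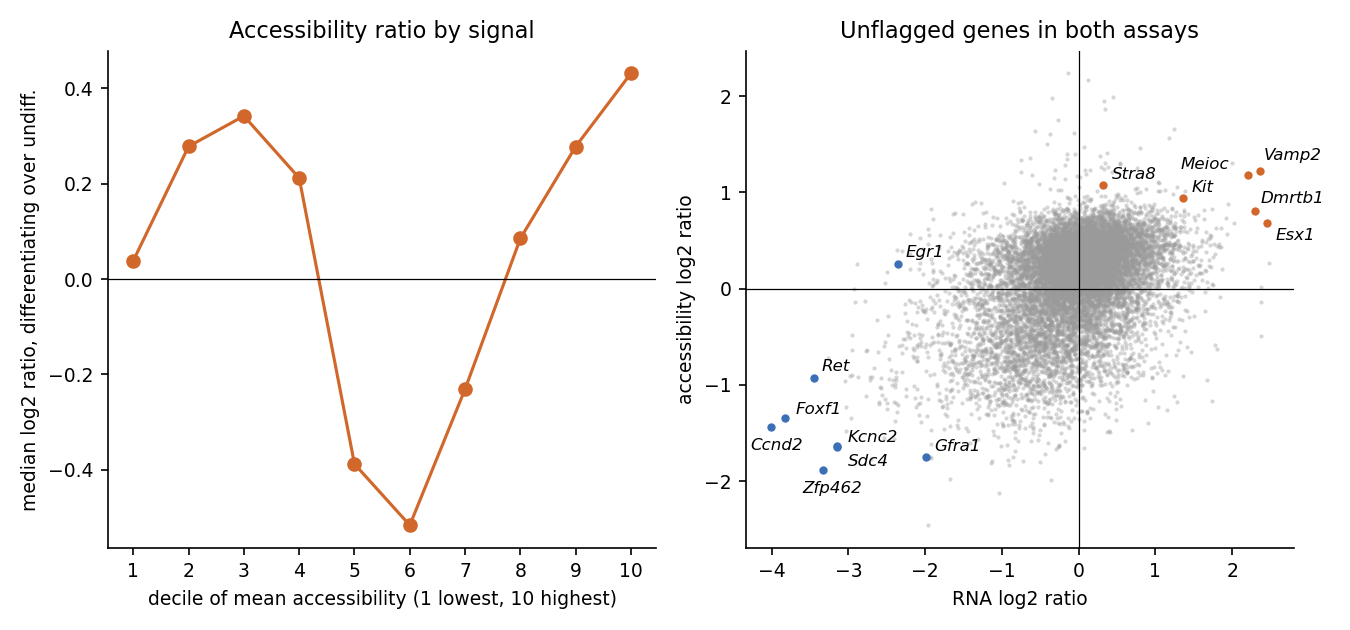
Left, median log2 accessibility ratio of differentiating over undifferentiated spermatogonia (vertical axis) for deciles of nuclear genes by mean signal (horizontal axis). Right, accessibility log2 ratio (vertical) against RNA log2 ratio (horizontal) for unflagged genes, with genes higher in RNA in orange and lower in blue where named. The median runs from -0.52 to 0.43 with signal, and of the labelled genes lower in RNA only Egr1 lies above 0 in accessibility.

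The scATAC-seq clusters named the same cells differently. Of 1230 undiff. SpG cells with a scATAC-seq name, 917 (74.6%, 72.0 to 77.0) were named undiff. SpG by accessibility too. That share was 94.6% at 11 dpp, 94% at 17 dpp and 85.9% (85 of 99) in Cre/+, but 5 of 254 cells (1.97%) at 25 dpp, where 208 (81.9%) were named eL/L/Z. The undiff. SpG cells of 25 dpp had a median of 7998.5 fragments, against 29684 at 11 dpp, 37393.5 at 17 dpp and 21930 in Cre/+. The part of depth in these names was not tested. No scATAC-seq population was named differentiating. Of 760 diff. SpG cells, 388 (51.1%, 47.4 to 54.7) were named eL/L/Z, 145 (19.1%) undiff. SpG, 138 (18.2%) mP/lP and 76 (10%) L/Z/eP. The label differentiating thus rests on RNA, and the accessibility of the population is an average over cells with several scATAC-seq names. Of the diff. SpG cells of Cre/+ whose number named a somatic Nfya-CKO cell, 101 of 300 were named mP/lP. That held for 20 of 315 with a number of their own and for 11 of 15 whose number named a Nfya-CKO spermatogonium. Among undiff. SpG cells of Cre/+, it held for 11 of 57 with the number of a somatic Nfya-CKO cell and 2 of 42 with their own. Without cells of shared numbers, 64.9% of diff. SpG cells were named eL/L/Z and 14.5% undiff. SpG.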

How the data were processed

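scRNA-seq and scATAC-seq (BD Rhapsody) were measured on the same testis nuclei, 1 library per condition and assay. The authors aligned reads to mm10 (STAR 2.7.10b and BWA 0.7.12 in the submitters' processing notes), removed low-quality cells and doublets, and clustered cells with Seurat 5.2.1 and ArchR 1.0.3. The authors deposited 1 matrix per assay on a natural log scale, the log of 1 plus the mean over a population's cells of UMIs or fragments per 10000. This scale was found from the values, since it is not given in the sources used here, and mitochondrial shares matched the cell table in 13 of 13 scRNA-seq populations. The deposited cell tables hold the count of UMIs or fragments per cell, the percent of mitochondrial UMIs, the fraction of reads in promoters (a median of 0.195 in undiff. SpG and 0.209 in diff. SpG) and the TSS enrichment ratio, as the authors computed them. The cell tables call the 8-week libraries CreKO_8w and NFYAKO_8w, which were taken as Cre/+ and Nfya-CKO. A further 18 columns of the cell tables were not used.

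Values were turned back to the linear scale in scipy 1.17.1 and pandas 2.3.3 under numpy 2.4.6 (Python 3.11.15). RNA was compared as the log2 ratio of value + 0.1 at a mean of at least 0.05, with calls at 2-fold, and accessibility as that of value per 1000000 (FPM) + 1, with calls at 1.5-fold. The spermatid flag used a pseudocount of 0.01. No test was run, since neither cells nor genes are replicates. Intervals are exact for shares (Clopper-Pearson) and approximate for ratios (conditional binomial on counts rebuilt from cell depths), and 3 counts gave the limit of a share of 0. The steps were tested on simulated data.

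Genes were named by a rule: members of lists, the 10 largest RNA ratios each way among unflagged genes and the 6 largest among flagged genes at a mean of at least 0.2, the 8 largest accessibility ratios each way at a mean of at least 20 FPM, and up to 10 genes each way called in both assays, passing over predicted genes. Members and lists were chosen with earlier results of these data known. RefSeq symbols matched 92.9% of genes compared. Alternatives covered pseudocounts, filters, the flag, scaling and fold limits, and centring within deciles of signal and leaving out cells of shared numbers were added after the data were examined.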

Additional observations from a re-analysis of the deposited data

How the results depend on the processing

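No paired analysis was possible because each condition was 1 library and the gene values were pooled over libraries, and no library could be left out of them. The counts of genes depended on the settings, as counts past a fold limit do. With a pseudocount of 0.01 in RNA, 2568 genes were higher (1038 unflagged, 1530 flagged) and 1800 lower (1779 unflagged). With 0.5 these were 230 (64 and 166) and 284 (282). At a mean of at least 0.2, 928 genes were higher, 546 of them flagged. At 1.5-fold, 3097 were higher (1593 unflagged) and 2303 lower (2275 unflagged), and at 4-fold 144 (9 unflagged, 135 flagged) and 128 (128 unflagged). In accessibility, a pseudocount of 5 gave 1350 higher and 2449 lower, a mean of at least 10 FPM 1173 and 2590, a limit of 2-fold 1049 and 1241, centring on the median 2817 higher, and centring within deciles of signal 2802 higher. The log2 ratios of single named genes stayed within their error in 2357 alternative values and moved beyond it in 129, with no change of sign. The RNA median changed sign for the G1 list at a mean of at least 0.2 (-0.29) and, with no filter, for macrophage (0.16) and endothelial (0.00736) markers. The accessibility median changed sign for DNA methylation genes scaled to nuclear genes (-0.0112) or at a mean of at least 10 (-0.16), and within deciles of signal for the G1 list (-0.19) and the NF-Y subunits (-0.0749). Without cells of shared numbers, undiff. SpG held 11.9% from 17 dpp, 30.6% from 25 dpp and 5.05% from Cre/+, and diff. SpG 4.65% from 11 dpp, 22.2% from 25 dpp and 70.6% from Cre/+ (81.7% without cells that have a deeper cell of the same number). The share named differentiating at 17 dpp was then 8.77%. Names by accessibility were then undiff. SpG in 66.0% and eL/L/Z in 25.2% of undiff. SpG cells, and undiff. SpG in 14.5%, eL/L/Z in 64.9% and L/Z/eP in 13.6% of diff. SpG cells. The cause of these changes was not tested. Counting error limits single genes near the floor of 3 UMIs, 0.00338 per 10000 in undiff. SpG and 0.00685 in diff. SpG.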

Other observations

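Genes of protein synthesis and of the sex chromosomes were described beyond the comparison above. Of 83 ribosomal protein genes, 35 were at least 2-fold lower and 0 higher in diff. SpG, against 8.01% and 3.61% of unflagged genes (median log2 ratio -0.86), and their summed level was 246 UMIs per 10000 in undiff. SpG, 146 in diff. SpG and 203 in pL. Their accessibility had a median log2 ratio of 0.35, and 0.12 after centring, with 8 of 84 at least 1.5-fold higher against 14% of all nuclear genes. Many ribosomal protein genes have processed copies that share reads, so single members are uncertain. Of 451 X-linked genes, 21 were higher and 39 lower, against 10.2% and 7.05% of all genes compared. Of the 436 unflagged ones 13 were higher and 39 lower, near the 3.61% and 8.01% of all unflagged genes. The summed level of the X-linked list was 219 in undiff. SpG, 194 in diff. SpG and 53.1 in mP/lP, in which the X chromosome is silenced. Of 8 Y-linked genes of spermatogonia 1 was lower, the histone demethylase Kdm5d, and 0 were higher. Over all unflagged genes 8.01% were lower and 3.61% higher, so for a list of 8 this count is near those shares.

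The study's list of mitosis genes, chosen by the authors from sorted germ cells of other samples, had 1083 genes compared. Of these, 280 were lower and 19 higher in diff. SpG, against 7.05% and 10.2% of all genes compared. Of its 1081 unflagged genes 280 were lower and 18 higher, against 8.01% and 3.61% of all unflagged genes. The median log2 ratio of the list was -0.43. The list was built on genes that are high in spermatogonia and is no independent sign of the direction. Promoter motifs were counted only in genes with a RefSeq window. These were 350 of the 450 unflagged genes higher in RNA, 715 of the 997 lower and 10663 of all 14264 compared. Among genes with a window, CCAAT or ATTGG occurred in 42.6% of the unflagged higher genes, 43.6% of those lower and 43.5% of all compared. It occurred in 51.7% of the genes at least 1.5-fold more accessible at a mean of at least 20 FPM, 43.3% of those less accessible and 43.6% of all at that mean. GGGCGG or CCGCCC occurred in 77.4%, 69.2% and 73.4% of the same groups. By RNA it occurred in 71.4% of the unflagged genes higher, 71.9% of those lower and 66.5% of all genes compared. In flagged genes higher in RNA the share was 32.8%, and the share over all flagged genes was not counted. All genes compared include the flagged ones. The share over all unflagged genes was not counted for either motif, so the unflagged groups have no matched background here. The accessibility ratio moved with the signal, and its part in these shares was not tested.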
